A study of Mus musculus with 13 samples.

Results

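Zfp281, Bmi1, Bcl6, Bcl11b and Runx1 encode nuclear proteins that repress, or take part in repressing, transcription, and they were 5 of the 94 genes measured by quantitative PCR in single CD8+ T cells of mouse spleen. They were chosen by gene name, with earlier results of these data known. OT-1 cells are T cells with a single transgenic receptor for an ovalbumin peptide, so the responders of a recipient share 1 specificity. CD45.1+ OT-1 cells were transferred into CD45.2 wild-type C57BL/6J recipients, which were infected intravenously with Listeria monocytogenes engineered to make ovalbumin. The 13 populations were unactivated naive OT-1 cells at day 0, cells after their first division, its proximal and distal daughters at day 2, unsorted responders at days 3, 5 and 7, short-lived effectors (Tsle) and memory precursors (Tmp) sorted at days 5 and 7, and, at day 45, effector memory cells (Tem) and central memory cells (Tcm). Recipients of first-division cells received 2000000 OT-1 cells, those sampled at day 3 received 20000 and those at days 5, 7 and 45 received 5000, before 5000 colony-forming units of bacteria. First-division cells were traced with the dye CFSE, and sorting used antibodies to CD8, CD44 and CD4 and to the myeloid markers CD11b, CD11c and F4/80. The sources used here do not state the age, the sex or the number of mice, nor, for the 2 daughter populations, how many cells were transferred. Day and number of cells transferred cannot be told apart between the first-division population, the day 3 population and the populations of days 5, 7 and 45.

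Zfp281 is a zinc finger protein best known in mouse embryonic stem cells, where it restrains pluripotency genes. Bmi1 is a RING finger subunit of Polycomb repressive complex 1, which places ubiquitin on histone H2A, and Bcl6 is a BTB and zinc finger repressor that opposes Blimp-1, the product of Prdm1, and favours follicular helper and memory T cells. Bcl11b is a zinc finger factor needed for T lineage commitment and for the identity of mature T cells, and Runx1 is a DNA-binding partner of CBF-beta that represses as well as activates genes during thymocyte development and in resting T cells.

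Each population was 1 sample of 48 (distal) to 154 (unsorted day 5) cells, 1449 in all, so populations are compared without a test or a p-value. A gene counted as detected where its deposited value was above 0, a share of cells is given with its exact (Clopper-Pearson) 95% interval, and these intervals cover counting error only. The deposited values grow with the amount of transcript on a log2 scale of PCR cycles, and values of different assays are not compared with each other. The columns of each population were also taken as an earlier and a later part by their order in the table, because single assays change height along the columns. Detection of the lymphocyte gene Ptprc ran from 83.1% of Tem to 100% of day 5 Tsle cells. Cd8a ran from 27.3 to 65.1% and Thy1 from 18.8 to 65.6%, so the coreceptor transcript itself was missed in many sorted CD8+ T cells. Of the 3 measured markers of other T cells, Cd4 and Foxp3 were each found in 2 of 1449 cells and Gata3 in 53 (3.66%), up to 8.21% of unsorted day 7 cells. Markers of B and myeloid cells were not on the panel.

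Zfp281 was the only one of the 5 found in a large part of the cells, 638 of 1449 (44.0%, 41.5 to 46.6%). Bmi1 was found in 127 (8.76%), Runx1 in 75 (5.18%), Bcl6 in 44 (3.04%) and Bcl11b in 43 (2.97%). The suffixes of the assay names differ: by the supplier's naming, the Zfp281 assay lies within 1 exon and can amplify genomic DNA, the Bmi1 assay may do so, and those of Bcl6, Bcl11b and Runx1 span an exon junction. Other assays of the panel with the single-exon suffix, singled out after their values were seen, differed widely. Over the 13 populations Mela was found in 0 to 8.06% of cells, Ccr6 in 0 to 5.97%, Bnip3l in 1.47 to 24.6%, Cxcr3 in 4.17 to 68.8% and Actb in 100%. The part of genomic DNA in the Zfp281 shares was not tested.

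Zfp281 was found most often in the populations of days 2 and 3 and less often before and after. It was detected in 45.6% of naive cells (37.5 to 54.0%), 65.3% of first-division cells (56.9 to 73.0%), 75.9% of proximal cells (65.3 to 84.6%), 66.7% of distal cells (51.6 to 79.6%) and 67.1% of day 3 cells (58.8 to 74.8%). At day 5 the shares were 38.3% of unsorted cells (30.6 to 46.5%), 27.8% of Tsle (18.4 to 39.1%) and 35.6% of Tmp (25.7 to 46.4%). At day 7 they were 37.3% of unsorted cells (29.1 to 46.1%), 32.6% of Tsle (23.0 to 43.3%) and 20.97% of Tmp (11.7 to 33.2%). At day 45 they were 19.1% of Tem (12.9 to 26.7%) and 39.1% of Tcm (30.9 to 47.8%).

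All 4 populations of days 2 and 3 lay above all 8 of days 5 to 45, with ranges of 65.3 to 75.9% for days 2 and 3, and 19.1 to 39.1% for days 5 to 45. In the order of the 13 shares, the single pair of neighbours whose intervals did not overlap was first-division and naive cells. At a limit of 14 cycles for detection the ranges were 51.05 to 62.5% for days 2 and 3, and 14.7 to 34.3% for days 5 to 45. At a limit of 16 they overlapped, at 12.05 to 39.6% for days 2 and 3, and 1.27 to 20.1% for days 5 to 45, with proximal cells (12.05%) below unsorted day 7 cells (20.1%). For cells above 0 the gap was also seen in the column parts: the 8 parts of days 2 and 3 had 54.2 to 80.5% and the 16 parts of days 5 to 45 had 16.1 to 47.8%. Naive cells fell between, with 34.7% of the earlier and 56.8% of the later columns, so their place in the order depends on the part taken. Between the parts of 1 population the share differed by 2.78 points (first-division) to 25 points (distal), with a median of 9.68.

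**Figure D1:**
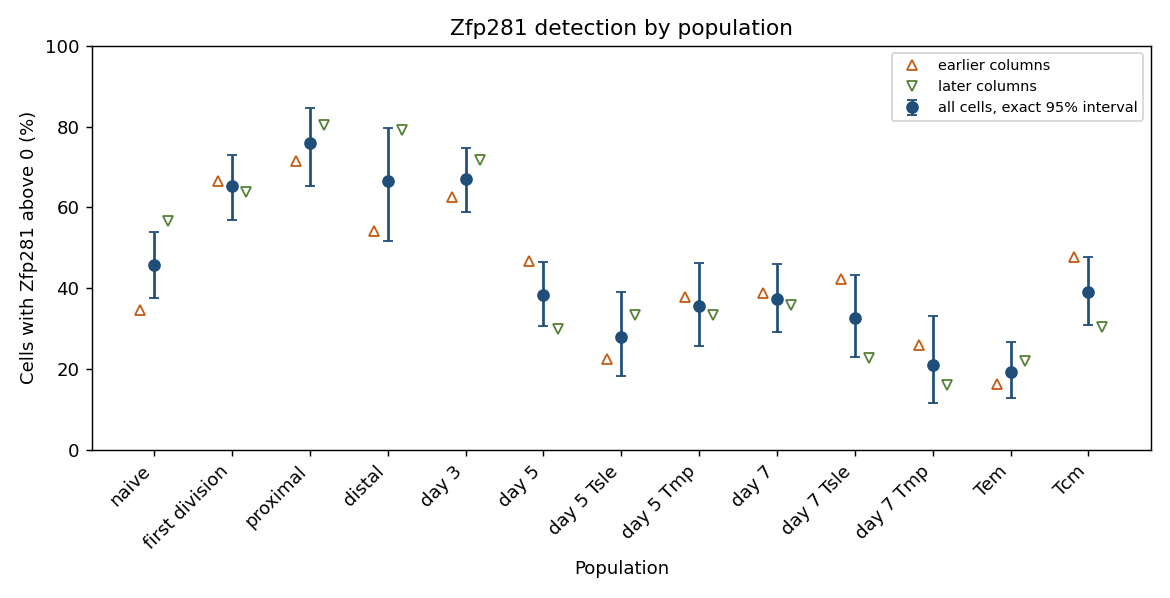
Share of cells with Zfp281 above 0 (y axis, percent) in the 13 populations (x axis). Filled circles are all cells with exact 95% intervals and open triangles the earlier and later columns of each population. The 4 populations of days 2 and 3 sit between 65.3 and 75.9% and the 8 of days 5 to 45 between 19.1 and 39.1%.

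The number of transcripts found per cell also differed between populations, and its median had a rank correlation of 0.30 with the Zfp281 share over the 13. Distal cells had a median of 12 assays above 0, as naive cells did, and proximal and first-division cells had 18. Unsorted day 5 cells had 19 and Tem cells 11. Within populations, cells with Zfp281 had more of the 89 other genes above 0 than cells without it in 12 of 13, with medians over all cells of 16 with it and 14 without it. Among cells with 10 to 20 assays above 0, Zfp281 was found in 65.0% of 117 day 3 cells, 73.1% of 52 proximal cells, 68.4% of 38 distal cells and 57.5% of 87 first-division cells. In the same range of depth it was found in 31.1% of 103 unsorted day 5 cells, 37.2% of 113 unsorted day 7 cells and 51.2% of 129 naive cells.

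Where Zfp281 was detected, the median deposited value ran from 14.5 in day 7 Tsle to 16.6 cycles in distal cells, a range of 2.07 cycles. First-division cells alone spanned as much, with a median of 17.1 in the earlier and 14.9 in the later columns. The quartiles over all 638 cells were 14.3 and 16.3 cycles, and 15 of them (2.35%) lay below a value of 12. Between the earlier and later columns of 1 population the medians differed by 0.60 cycles in the median population and by 2.16 at most.

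**Figure D2:**
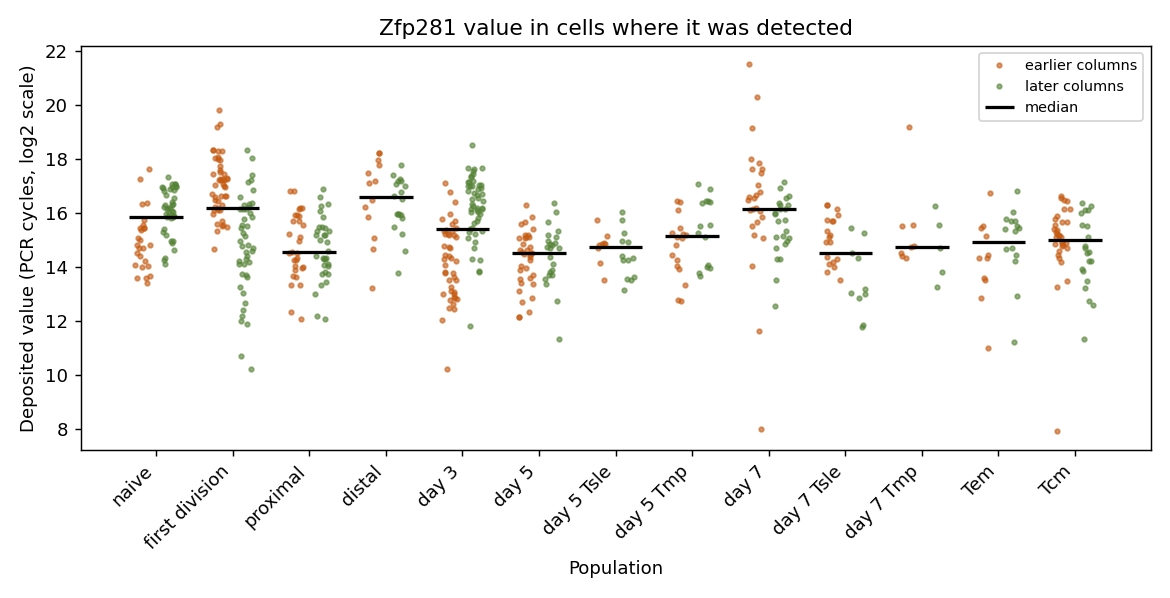
Deposited value of Zfp281 in PCR cycles (y axis, log2 scale) in each cell where it was detected, by population (x axis), with earlier and later columns in separate colours and the population median as a bar. Medians lie between 14.5 and 16.6 cycles, and in first-division cells the earlier columns sit above the later ones.

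Of 54 other genes detected in at least 5% of all cells, the 4 whose shares over the 13 populations ranked most like those of Zfp281 were Tcf12, Ccr7, Tox and Myc. Tcf12 encodes an E protein (Spearman rho 0.91, Pearson r 0.89) and Ccr7 a chemokine receptor of lymph node homing (rho 0.90, r 0.86). Tox encodes a nuclear factor of T cell development and chronic stimulation (rho 0.86, r 0.88) and Myc the growth regulator (rho 0.86, r 0.94). Several populations share a day and a source, and all share the array panel, so these are descriptions of 13 points. Myc was found in 54.9% of first-division and 45.5% of day 3 cells, against 10.7% of naive cells. In single cells the 2 transcripts met little more often than their shares give: 191 cells had both Zfp281 and Myc, and the product of the shares within each population gives 172.

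The panel measured Myc, whose protein binds the E-box CACGTG, and these letters were looked for in promoters. The RefSeq windows of the 5 genes in build GRCm38.p6, which reach from 250 bases before to 50 after each annotated start, were searched on both strands, which read the same for this motif. All 5 genes were matched, with 2 windows each for Bcl6 and Runx1. The letters occur in 7.15% of all 32851 windows of this length in the table. They are absent from the windows of Zfp281 and Bcl11b and from the second windows of Bcl6 and Runx1, and occur 1 time each in Bmi1, Bcl6 and Runx1. The 60 bases around them are shown 5′ to 3′ on the gene's strand, with the E-box in capitals, at chr2:18676776-18676835 (plus strand), chr16:23988880-23988939 (minus strand) and chr16:92826113-92826172 (minus strand).
Bmi1: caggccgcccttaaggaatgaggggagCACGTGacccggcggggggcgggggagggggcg
Bcl6: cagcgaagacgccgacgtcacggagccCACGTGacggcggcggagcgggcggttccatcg
Runx1: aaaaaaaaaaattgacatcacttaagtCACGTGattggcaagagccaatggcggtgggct
A match of letters is a description and not a binding site, and nothing about Myc is drawn from it.

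Bmi1, the Polycomb subunit, was found in a minority of cells everywhere, and over all cells most often in proximal cells. The shares were 4.03% of naive (1.49 to 8.56%), 12.5% of first-division (7.58 to 19.03%), 20.5% of proximal (12.4 to 30.8%), 8.33% of distal (2.32 to 20.0%) and 11.2% of day 3 cells (6.53 to 17.5%). At day 5 Bmi1 was found in 10.4% of unsorted cells (6.06 to 16.3%), 15.2% of Tsle (8.10 to 25.03%) and 11.1% of Tmp (5.46 to 19.5%). The day 7 and day 45 populations lay between 3.23% (day 7 Tmp, 2 of 62 cells) and 6.72% (unsorted day 7). Neighbours in this order never had intervals that stayed apart, but those of proximal cells and naive cells did not overlap. The Bmi1 shares of the earlier and later columns were 16.7 and 24.4% in proximal cells, against 4 and 4.05% in naive cells. Among the genes whose shares ranked most like those of Bmi1 were Tnfrsf9, the costimulatory receptor 4-1BB (rho 0.81, r 0.63), and the proteasome subunit Psmb7 (rho 0.80, r 0.80). The rank correlation of its share with the median number of other assays above 0 was 0.64, the highest of the 5 genes, and cells with Bmi1 had a median of 17 other genes above 0 and cells without it 14. The part of that number in the order of the Bmi1 shares was not tested.

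Bcl6 was detected in no naive cell and in a few cells of each population of days 2 and 3. It was found in 0 of 149 naive cells (up to 2.01%), 8 of 144 first-division cells (5.56%, 2.43 to 10.6%), 5 of 83 proximal cells (6.02%, 1.98 to 13.5%), 2 of 48 distal cells (4.17%, 0.509 to 14.3%) and 9 of 143 day 3 cells (6.29%, 2.92 to 11.6%). The exact interval of day 3 cells did not overlap that of naive cells, whose exact upper bound was 2.45%. Later it was found in 1 of 154 unsorted day 5 cells, 2 of 79 day 5 Tsle and 4 of 90 day 5 Tmp cells, and in 3 of 134 unsorted day 7, 2 of 89 day 7 Tsle and 0 of 62 day 7 Tmp cells (up to 4.84%). In memory it was found in 4 of 136 Tem and 4 of 138 Tcm cells. Tsle had Bcl6 in 2.53% of cells at day 5, against 4.44% of Tmp, and in 2.25% at day 7, against none of Tmp, with overlapping intervals at both days. Of the 9 day 3 cells with Bcl6, 7 came from the earlier and 2 from the later columns, and the lowest value among them was 14.1 cycles.

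Prdm1, the gene of Blimp-1 and the classical antagonist of Bcl6, had its highest share in unsorted day 5 cells. In unsorted day 5 cells Prdm1 was found in 32 of 154 cells (20.8%, 14.7 to 28.05%) and Bcl6 in 1. In day 3 cells Prdm1 was found in 0 of 143 (up to 2.10%) and Bcl6 in 9. Prdm1 was also found in 13 of 134 unsorted day 7, 7 of 79 day 5 Tsle and 6 of 89 day 7 Tsle cells. Bcl6 was found in 3, 2 and 2 cells of these populations. First-division cells had Prdm1 in 6 and Bcl6 in 8 of 144 cells, and day 5 Tmp had them in 5 and 4 of 90. Neither was found in the 149 naive cells, and day 7 Tmp had Prdm1 in 1 and Bcl6 in 0 of 62 cells. Over all cells 4 had both, where the product of the shares within populations gives 1.60, and a weak rank correlation of their shares over the 13 populations (rho -0.31) is a description. Counts this small do not set the pair apart. Bcl6 ranked most like Tnfrsf9 (rho 0.70), Irf4 (rho 0.64) and Irf8 (rho 0.64), interferon regulatory factors of activated lymphocytes.

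Bcl11b, which mature T cells keep expressing, was detected in at most 6.74% of the cells of any population, so the assay gave little on its course. It was found in 8 of 149 naive cells (5.37%, 2.35 to 10.3%), 5 of 144 first-division, 4 of 83 proximal, 0 of 48 distal (up to 6.25%) and 0 of 143 day 3 cells (up to 2.10%). At days 5 and 7 it was found in 1 to 6 cells of each population, most often in day 7 Tsle (6 of 89, 2.51 to 14.1%), and at day 45 in 2 of 136 Tem and 5 of 138 Tcm cells. All the exact intervals overlap with that of naive cells, that of day 3 cells (0 to 2.55%) only just. Of its 43 values 19 (44.2%) lay below 12, and the population medians ran from 6.31 cycles in day 5 Tsle to 13.8 in naive cells. Of the 8 naive cells with Bcl11b, 7 were in the later columns. No gene followed its shares closely: the highest rho was 0.34, and Mapk14 stood at 0.34 and Klf2 at 0.32.

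Runx1 was rare up to day 3 and most often found in unsorted day 7 cells. Over the 13 populations its rank correlation with Zfp281 was -0.62, and the Pearson r was -0.41. The shares were 2.01% of naive (3 of 149), 2.78% of first-division (4 of 144), 3.61% of proximal (3 of 83), 0 of 48 distal (up to 6.25%) and 1.40% of day 3 cells (2 of 143). At day 5 it was found in 5.84% of unsorted cells (2.71 to 10.8%), 11.4% of Tsle (5.34 to 20.5%) and 4.44% of Tmp (1.22 to 10.99%). At day 7 it was found in 17.9% of unsorted cells (24 of 134, 11.8 to 25.5%), 6.74% of Tsle (2.51 to 14.1%) and 4.84% of Tmp (1.009 to 13.5%), and at day 45 in 4 of 136 Tem and 4 of 138 Tcm cells. The interval of unsorted day 7 cells lay apart from those of naive, day 3 and unsorted day 5 cells and overlapped those of the sorted day 7 cells. The share of unsorted day 7 cells lay above the shares of both sorted day 7 populations. The sources used here do not state the gates of the sorted and unsorted day 7 cells.

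Detection of Runx1 differed between the column parts. It was found in 56 of 727 cells of the earlier columns (7.70%) and 19 of 722 of the later ones (2.63%), was higher in the earlier columns in 10 of 13 populations, and in 7 of them was found in no cell of the later columns. The other 3 were naive cells, with 0 of the earlier and 4.05% of the later columns, day 5 Tmp, with the same share in both, and distal cells, with none. In unsorted day 7 cells it was found in 19.4 and 16.4% of the earlier and later columns. In day 5 Tsle the shares were 17.5 and 5.13%, and in unsorted day 5 cells 11.7% and 0 of 77. The median value in unsorted day 5 cells, 10.96 cycles, was below that of every other population with the transcript. Among the genes whose shares ranked most like those of Runx1 were Zeb2, a factor of terminal effectors (rho 0.87), and Lgals1, encoding galectin-1 (rho 0.85). The Pearson r was lower, 0.77 for Zeb2 and 0.61 for Lgals1. In cells, Runx1 and Zeb2 met in 23, and the shares within populations give 22.2. The annotated start of the distal Runx1 promoter is followed by a pair of ACCACA letters, the core that Runx proteins bind. At least 1 copy of these letters occurs on either strand in 16.8% of all windows, and how often a pair occurs was not counted. The 30 bases at chr16:92826029-92826058 (minus strand, GRCm38.p6), with both copies in capitals, are shown because they are the gene's own motif.
Runx1: acctcataaacaACCACAgaACCACAagtt

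**Figure D3:**
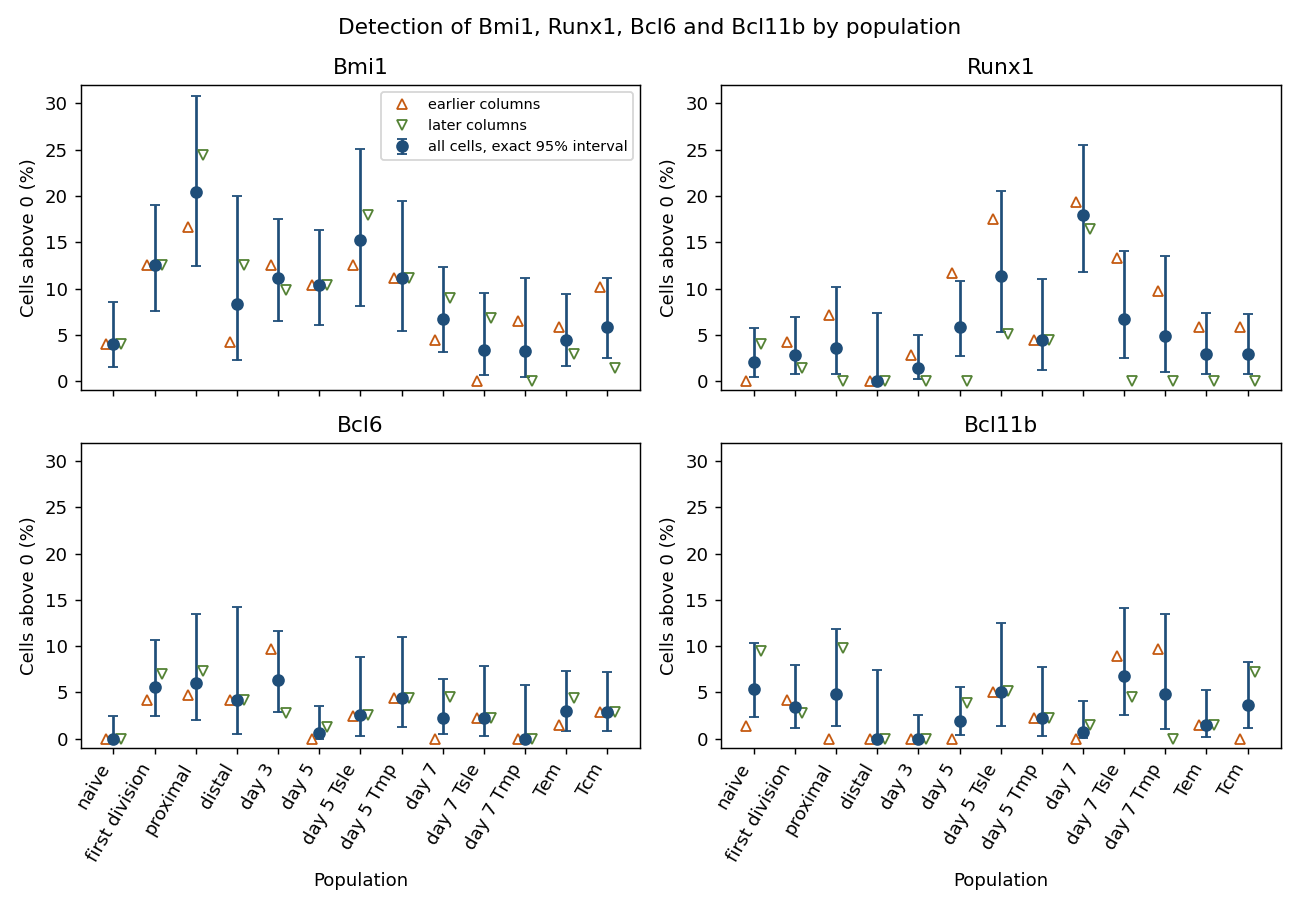
Share of cells above 0 (y axis, percent) for Bmi1, Runx1, Bcl6 and Bcl11b in the 13 populations (x axis). Filled circles are all cells with exact 95% intervals and open triangles the earlier and later columns. Over all cells of a population, Bmi1 is highest in proximal cells at 20.5% and Runx1 in unsorted day 7 cells at 17.9%. Bcl6 and Bcl11b stay at or below 6.74% over all cells, with column parts of up to 9.72 and 9.76%.

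A difference of at least 20 percentage points in share was used to count genes in each of 14 comparisons between populations. Of the 5 genes, Zfp281 reached it in 4 comparisons and the others in none. Bcl6, Bcl11b and Runx1 could not reach it, because their highest shares in any population were 6.29, 6.74 and 17.9%. Bmi1 was above 20% in proximal cells only (20.5%), which were compared with distal cells alone (8.33%). The counts out of 5 at this mark over all cells therefore rest on Zfp281, and say little about the other genes. Against naive cells, 1 of 5 reached it at day 3, where 12.8% of the 94 genes did, with Zfp281 in 67.1% of day 3 and 45.6% of naive cells (21.5 points). In first-division cells 0 of 5 reached it, where 13.8% of all genes did. Zfp281 was just short of it there, at 65.3% against 45.6% of naive cells (19.6 points). Among cells with 10 to 20 assays these Zfp281 shares were 57.5 and 51.2%. They were 66.7 and 34.7% in the earlier columns, and 63.9 and 56.8% in the later ones. At day 5, 0 of 5 reached 20 points against naive cells, where 17% of all genes did, and at day 7 0 of 5, where 13.8% did. Runx1 was 15.9 points higher in unsorted day 7 than in naive cells, 17.9 against 2.01%. The 21.5 points at day 3 were 13.8 points among cells with 10 to 20 assays and 15.1 points in the later columns, and with a limit of 14 cycles for detection they were 8.77 points.

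From day 3 to day 5 the Zfp281 share differed by -28.8 points, with 38.3% of day 5 against 67.1% of day 3 cells, and it was the 1 of 5 that reached 20 points, where 22.3% of all genes did. By size this difference ranked 14 of 94. Within the earlier columns it was -15.7 points, within the later columns -42.0, and among cells with 10 to 20 assays -33.9. Bcl6 differed by -5.64 points and the other 3 differed by at most 4.45 points. From day 5 to day 7, 0 of 5 reached 20 points, where 5.32% of all genes did. The largest difference among the 5 was that of Runx1, 17.9% of day 7 against 5.84% of day 5 cells, 12.1 points. All 9 of these day 5 cells were in the earlier columns. At a limit of 12 cycles for detection the Runx1 shares were 17.2% at day 7 and 1.30% at day 5.

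Among memory cells, Tem had Zfp281 less often than naive cells and than Tcm. In Tem against naive cells 1 of 5 reached 20 points, where 10.6% of all genes did, with Zfp281 in 19.1% of Tem and 45.6% of naive cells (-26.5 points, rank 6 of 94). In Tem against Tcm it was again 1 of 5, where 12.8% of all genes did, and at 19.1% against 39.1% (-20.0 points) Zfp281 barely reached the mark. In Tcm against naive cells it was 0 of 5, where 11.7% did. Tem cells had the fewest assays above 0, a median of 11, against 17 in Tcm and 12 in naive cells, and the lowest median Actb, 17.1 cycles against 20.99 in Tcm and 19.3 in naive cells. Among cells with 10 to 20 assays above 0, Zfp281 was found in 21.3% of 94 Tem cells, 37.7% of 122 Tcm cells and 51.2% of 129 naive cells. There the difference of Tem from Tcm was -16.4 points, short of the mark, and that from naive cells -29.9. By columns, Tem minus naive was -18.5 points in the earlier and -34.7 in the later part, and Tem minus Tcm -31.6 and -8.38 points.

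Against their day 7 counterparts, 0 of 5 reached 20 points in Tcm minus Tmp, where 6.38% of all genes did, and 0 of 5 in Tem minus Tsle, where 5.32% did. Zfp281 was found in 39.1% of Tcm and 20.97% of day 7 Tmp cells (18.2 points), and in 19.1% of Tem and 32.6% of day 7 Tsle cells (-13.5 points). Proximal cells differed from distal cells by 20 points in 0 of 5, where 8.51% of all genes did. All 5 shares of cells above 0 were higher in proximal cells, by 1.86 (Bcl6) to 12.1 points (Bmi1, 20.5 against 8.33%). The panel leaned the same way, with a median difference of 2.41 points over all genes, against 4.82 points over the 5. Of all genes, 8 were at least 20 points higher in proximal cells and 0 lower. The 4 proximal cells with Bcl11b all had values below 12, and the 3 with Runx1 were all in the earlier columns. For Zfp281 the direction turned with the limit for detection: the difference was 9.24 points above 0, -5.87 points at a limit of 14 and -27.5 points at 16 (12.05% of proximal against 39.6% of distal cells). Its mean level above a value of 12 over all cells, with undetected cells at 0, was 2.06 cycles in proximal and 2.93 in distal cells. Proximal cells had more assays above 0, a median of 18 against 12. The part of that number in these differences was not tested. In Tsle against Tmp, 0 of 5 reached the mark at day 5, where 5.32% of all genes did, and 0 of 5 at day 7, where 5.32% did. For Zfp281 the difference was -7.71 points at day 5 (27.8% of Tsle against 35.6% of Tmp) and 11.6 points at day 7 (32.6% of Tsle against 20.97% of Tmp), with overlapping intervals at both days.

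**Figure D4:**
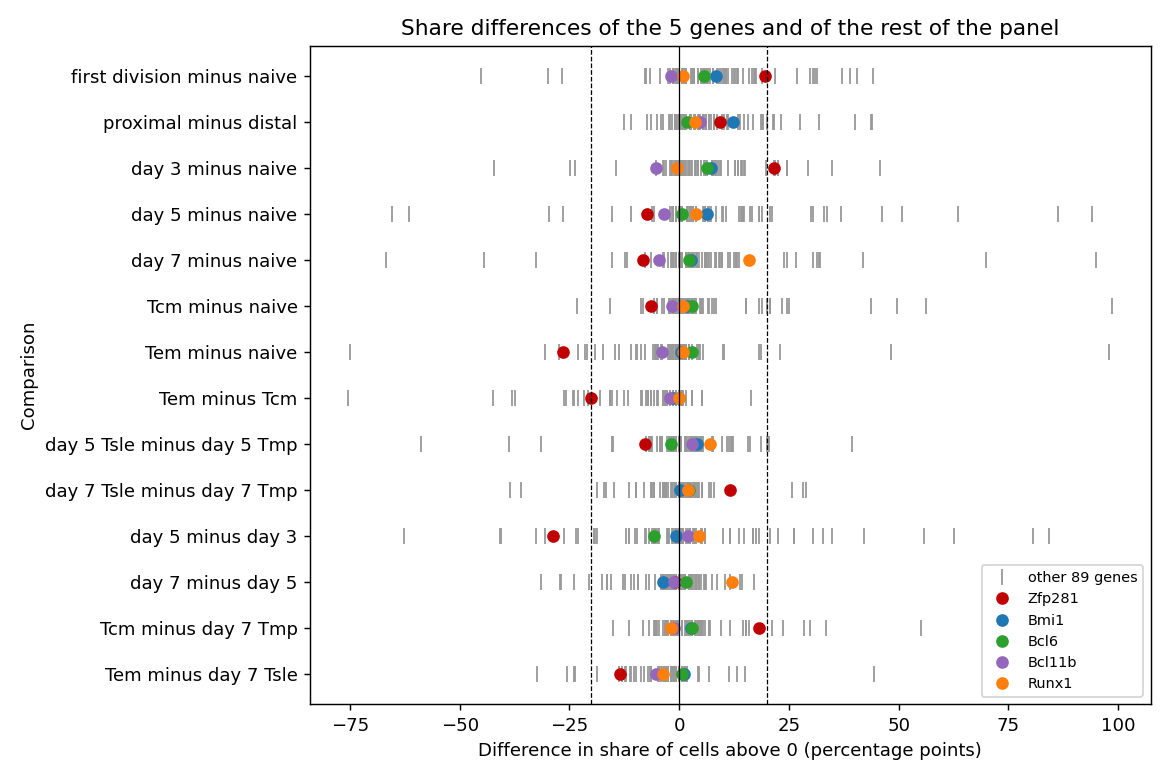
Difference in the share of cells above 0 (x axis, percentage points, first population minus second) in 14 comparisons (y axis). Coloured points are the 5 genes, grey ticks the 89 others, and dashed lines mark 20 points. Zfp281 is past the mark in day 3 minus naive (21.5), day 5 minus day 3 (-28.8), Tem minus naive (-26.5) and Tem minus Tcm (-20.0).

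The other transcription factors of the panel give the setting of these values. Of 28 fixed T cell factors 21 were measured, while none of 10 Polycomb and chromatin partners fixed with them was on the panel, so Bmi1 has no measured partner there. From day 3 to day 5, 3 of the 21 were at least 20 points higher at day 5 (Klf2, Prdm1 and Zeb2) and 5 lower (Tcf7, Foxp1, Irf8, Myc and Tox), with 12 of all 94 genes higher and 9 lower. The median difference was -2.30 points in these 21, -0.80 in the 5 repressors and 0 in all 94 genes. At day 3 against naive cells 4 were higher (Irf4, Irf8, Myc and Tox) and 1 lower (Klf2), with 9 of all 94 genes higher and 3 lower. In Tem against Tcm 0 were higher and 3 lower (Tcf7, Foxo1 and Eomes), in a comparison with 0 of all 94 genes higher and 12 lower. Tox, which ranked like Zfp281, was found in 37.1% of day 3, 4.55% of unsorted day 5 and 15.4% of naive cells.

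Most cells had none or 1 of the 5 transcripts. Over all cells 676 had none, 631 had 1, 131 had 2, 10 had 3, 1 had 4 and 0 had all 5. At least 2 were found in 28.9% of proximal cells (19.5 to 39.9%), 16.7% of first-division cells (10.98 to 23.8%) and 13.3% of day 3 cells (8.19 to 19.97%), against 6.71% of naive cells (3.27 to 11.996%). In day 5 Tsle the share was 11.4% (5.34 to 20.5%) and in distal cells 10.4% (3.47 to 22.7%). Proximal cells also had Zfp281 more often than naive cells (75.9 against 45.6%) and more assays above 0 (a median of 18 against 12). The part of either in these shares was not tested. The lowest shares were 2.94% of Tem and 3.23% of day 7 Tmp cells, in which 72.1 and 72.6% had none.

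**Figure D5:**
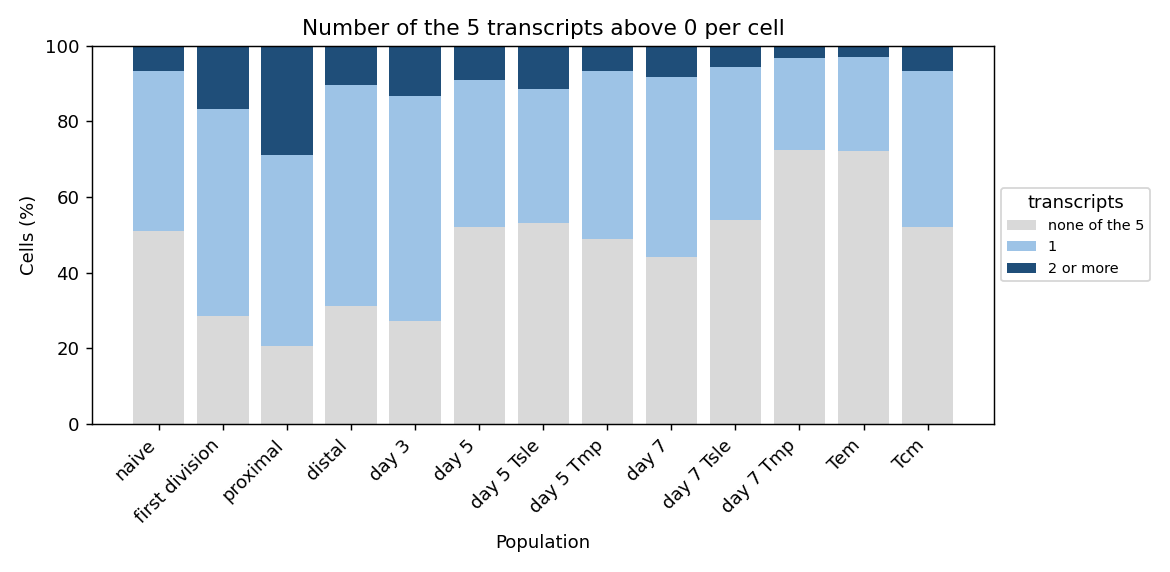
Cells (y axis, percent of the population) with none, 1, or 2 or more of the 5 transcripts above 0 in the 13 populations (x axis). Proximal cells have the most cells with 2 or more, 28.9%, and day 7 Tmp and Tem the most with none, 72.6 and 72.1%.

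Over all cells the 4 pairs with Zfp281 met in numbers near those their shares give, and the 6 others were too rare to place. Zfp281 and Bmi1 were both found in 71 cells, where the product of the shares within each population gives 62.9, and 55.9% of the cells with Bmi1 had Zfp281. Among cells with 10 to 20 assays the numbers were 39 and 37.7. Zfp281 was found with Bcl6 in 25 cells (22.9 from the shares), with Bcl11b in 22 (18.2) and with Runx1 in 30 (28.8). The pairs without Zfp281 met in 0 to 7 cells each. Bmi1 met Bcl11b in 7 cells (3.65 from the shares) and Bcl6 in 1 (4.73), and Bcl6 met Runx1 in none (1.90). In counts this sparse these are descriptions, and cells of 1 population share a sample.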

How the data were processed

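Cells were sorted into a mix for reverse transcription, preamplified with the pooled TaqMan assays and measured on Fluidigm arrays, per the labels' protocols. The authors deposited 1 table of 95 assay rows (94 genes, Il2 in 2 rows) and 1449 columns named by population. Its values are log2 amounts as deposited. The labels call them Ct, but they are 0 without detection and highest for R18s and Actb, so they were read as 40 minus Ct, an inferred offset. Symbols come from RefSeq accessions (93 rows matched). The sources used here do not state the cell filters, the gates or the arrays.

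Shares of cells above 0, medians of detected cells and pairs of genes per cell were computed. The genes, lists and comparisons were chosen with earlier results of these data known. Text names the 5 genes, for each the 3 genes of most similar rank (4 with a tie), and genes of the fixed lists. Some genes that this rule names are not reported here. Beside 0 cells, the limit given after "up to" is 3 cells of the population and not the exact bound. Alternatives were limits of 12, 14 and 16, filters on assays per cell, column parts, mean level and a mark of 10 points. Simulated data with known shares were used to test the scripts. The work used scipy 1.17.1 for intervals, pandas 2.3.3 and numpy 2.4.6 under Python 3.11.15, with plots from matplotlib 3.10.9.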

Additional observations from a re-analysis of the deposited data

Results flagged for a closer look

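The Zfp281 difference between Tsle and Tmp had opposite signs at the 2 days. Tsle minus Tmp was -7.71 points at day 5 (27.8% of Tsle against 35.6% of Tmp) and 11.6 points at day 7 (32.6% of Tsle against 20.97% of Tmp), so that the difference at day 7 exceeded that at day 5 by 19.3 points. With 1 sample per population this contrast was not tested. At day 7 the parts were 42.2% of the earlier and 22.7% of the later Tsle columns, against 25.8 and 16.1% of the Tmp columns. At day 5 they were 22.5 and 33.3% in Tsle, against 37.8 and 33.3% in Tmp.
The Bcl6 difference between Tsle and Tmp also had opposite signs, -1.91 points at day 5 and 2.25 points at day 7, which are 4.16 points apart and rest on 8 cells in all. It was not tested either.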

How the results depend on the processing

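No paired analysis was possible because each population is 1 sample. The number of the 5 genes at least 20 points apart was recomputed in 14 comparisons under 10 alternatives, and it was the same in all 14 with a limit of 12. With a limit of 14 it was 0 for day 3 minus naive and Tem minus Tcm, and with 16 also 0 for these and Tem minus naive, and 1 for proximal minus distal, where Zfp281 was lower in proximal cells (-27.5 points). The mean level, at 1 cycle, gave 0 for day 3 minus naive and Tem minus Tcm, as did cells with at least 10 and with 10 to 20 assays, and cells with 10 to 20 assays also gave 1 for day 5 minus naive. Earlier columns gave 0 for Tem minus naive and day 5 minus day 3, and 1 for first-division minus naive, Tcm minus day 7 Tmp and Tem minus day 7 Tsle. Later columns gave 0 for day 3 minus naive and Tem minus Tcm, and 1 for day 5, day 7 and Tcm minus naive. A mark of 10 points gave 1 for first-division and day 7 minus naive, proximal minus distal, Tsle minus Tmp at day 7, day 7 minus day 5, and both memory populations minus their day 7 counterparts, at a background of 11.7 to 35.1% of genes in these. Cells with at least 20 assays, of which naive and Tem had 1 each, gave 1 for first-division, day 5, day 7 and Tcm minus naive and day 5 Tsle minus Tmp, 2 for both memory populations minus day 7 counterparts and 3 for day 7 Tsle minus Tmp. There Zfp281 turned to 100 points (Tem minus naive) and 39.3 points (Tem minus Tcm), from that single Tem cell. The cause of the other changes was not tested. Of the 4 differences of Zfp281 past the mark, none changed sign under the other alternatives. Centring on Actb and Gapdh moved 31 of 60 median values beyond their order-statistic interval.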
